A study of Mus musculus with 15 samples.

Results

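The AP-1 and immediate-early genes were followed in mouse whole blood as 10 members, Fos, Fosb, Jun, Junb, Jund, Egr1, Ier2, Ier5, Atf3 and Dusp1, taken as every probe set annotated with one of these symbols alone. That gave 14 probe sets among 34945 with a single gene, and 12 of them, from 9 genes, were bright enough to be tested with 19736 probe sets in all. Blood RNA came from 15 mice in 3 groups of 5, each mouse on its own Affymetrix 3' expression array, taken 6 h after vehicle, 1 mg/kg ABBV-075 or 5 mg/kg ABBV-075. ABBV-075 (mivebresib) blocks the bromodomains through which BET proteins attach to acetylated chromatin. The labels used here name no strain, sex, age or route of dosing, and no genetic change in any group. The series looked for markers in blood that respond to the compound.

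Immediate-early genes are transcribed within minutes of a stimulus, without new protein synthesis, when MAP kinases activate factors already bound at their promoters, and their short-lived RNAs decay as fast. Fos and Jun family proteins pair through leucine zippers to form AP-1, which binds DNA and switches on a second wave of genes. Their RNA polymerase is often held paused near the start site and released by the kinase P-TEFb. In blood, neutrophils, monocytes and lymphocytes can all express these genes, and the handling of blood or the stress of dosing can induce them.

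Blood cell markers were present. Of the marker lists, all 4 leukocyte, 7 erythroid, 14 monocyte, 8 B cell, 7 NK cell and 8 platelet markers on the array were tested, as were 9 of 10 neutrophil, 7 of 9 T cell and 3 of 9 eosinophil and basophil markers. Cd4 lay at the floor on all 15 arrays, and so did 5 eosinophil and basophil markers, among them Siglecf and Epx. Deposited array medians ran from 3.61 to 25.4, so the arrays were quantile-normalised, any value below 16 was raised to that floor, and all levels below are normalised intensities or their log2. The monocyte markers were lower at both doses: their summed intensity ranged over 6915 to 10130 in vehicle mice, 4533 to 7765 after 1 mg/kg and 3808 to 5244 after 5 mg/kg. B cell markers summed to 994 to 2589, 571 to 2123 and 1952 to 4196. Probe sets for 18S ribosomal RNA averaged a log2 of 11.31 ± 0.84 (SD, n = 5), 10.16 ± 0.83 and 9.41 ± 0.66. In whole blood, fewer cells of a type and less RNA per cell cannot be told apart, and the part of these differences in the results below was not tested.

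No member passed the threshold of an adjusted p of 0.05 in any of the 3 comparisons of dose groups. The nearest were a pair of immediate-early genes at 5 mg/kg: Ier5, a regulator of the heat shock response, at 1.91 times its vehicle level, and Ier2, a nuclear protein of uncertain function, at 1.63 times. Jund, the AP-1 subunit that resting cells keep on, had the narrowest interval, at 1.04 times its vehicle level. Fosb, a Fos relative, was not above the floor on any of the 15 arrays. At 5 mg/kg against vehicle 0 of 12 member probe sets passed (limma, Benjamini-Hochberg over 19736 probe sets), where 0.162% of all probe sets did. Before adjustment 3 had a p under 0.05 and a higher level (Ier2 and a pair of Ier5 probe sets) and 0 a lower one, against 4.25% and 3.84% of all probe sets. The 1 mg/kg comparison gave 0 of 12 past the threshold, against 0.00507% of all, and before adjustment 0 higher and 0 lower, against 2.03% and 3.93%. Between the doses 0 passed, against 0% of all, and before adjustment 2 were higher (Ier5 and Dusp1) and 0 lower, against 6.17% and 2.41%. Groups overlapped for every tested member probe set in each comparison. Over all probe sets 1.29% lay wholly higher and 1.24% wholly lower at 5 mg/kg than with vehicle, 0.167% and 0.709% at 1 mg/kg than with vehicle, and 1.07% and 0.208% at 5 mg/kg than at 1 mg/kg.

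**Figure D1:**
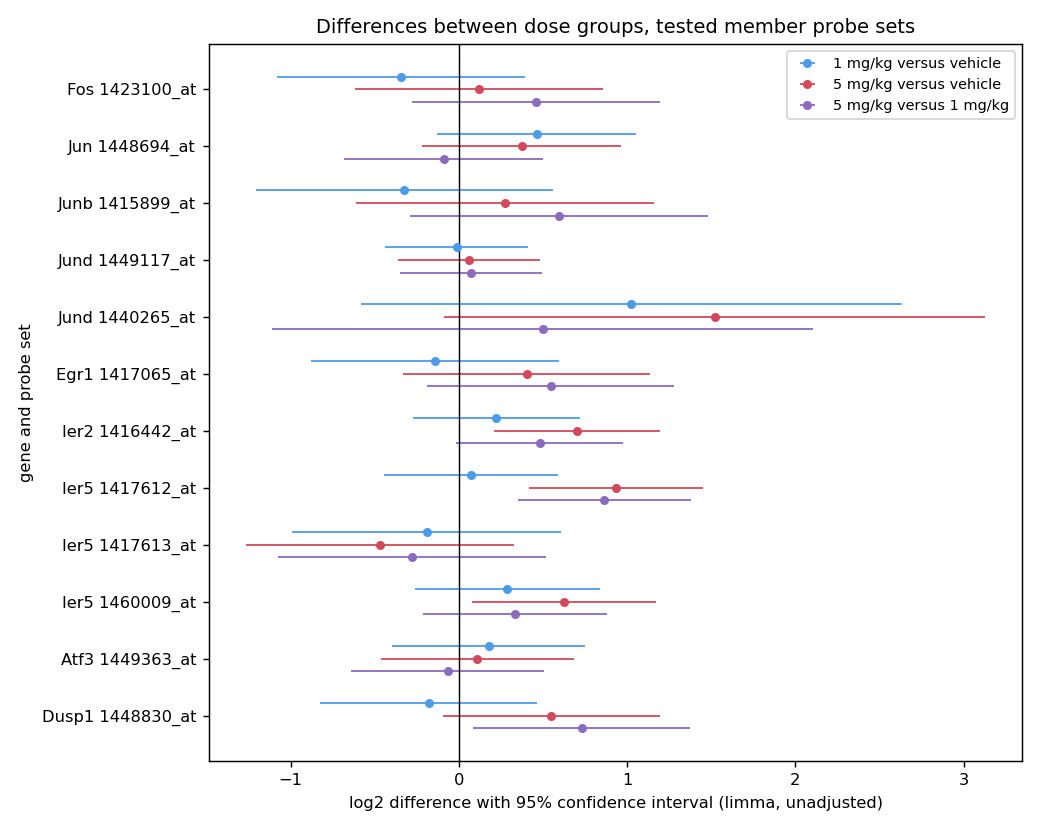
Log2 differences (x axis) of the 12 tested member probe sets (y axis) for the 3 comparisons, each with its 95% confidence interval from limma, not adjusted for the number of tests. The intervals of Ier2, Ier5 1417612_at and Ier5 1460009_at at 5 mg/kg against vehicle lie above 0, and those of Jund 1440265_at are the widest.

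By gene, each taken at its brightest probe set, 9 of 9 tested genes had a log2 difference above 0 at 5 mg/kg against vehicle, with a median of 0.37 and a range of 0.06 to 0.93 (11 of 12 by probe set). Over all tested probe sets 49% were above 0, with a median of -0.01. At 1 mg/kg 4 of 9 were above 0, with a median of -0.01 and a range of -0.34 to 0.46, beside 46.8% and -0.02 overall. Between the doses 7 of 9 were above 0, with a median of 0.48, beside 50.5% and 0.01 overall. Each gene's own difference missed the threshold, and the signs of the smallest ones at 5 mg/kg were not fixed. Fos was below 0 with a floor of 32, and Jund and Atf3 with the 18S signal as a covariate. Fos and Jund also fell below 0 in some runs that left out 1 array, to -0.055 and -0.042 at the lowest. Averaged over the 6 member probe sets above the floor on all arrays (Jun, Jund, Egr1, Ier2, Ier5 and Dusp1), the log2 level was 7.19, 7.29, 7.11, 7.20 and 6.93 with vehicle, 7.06, 7.30, 7.27, 7.33 and 7.11 at 1 mg/kg, and 7.62, 7.38, 7.99, 7.79 and 7.45 at 5 mg/kg. After normalisation all 5 means at 5 mg/kg lay above the others. In deposited intensities all 6 probe sets were lower on 5 mg/kg replicate 3 than on 1 mg/kg replicate 4. Jund was at 1413 and 3343 on these arrays, and Dusp1 at 142.2 and 273.1. The order of the means thus rests on the scaling of arrays. Averaged over all 12 tested member probe sets, the 5 mg/kg arrays also lay above the highest vehicle array (6.035) after normalisation. They did not lie above all 1 mg/kg arrays: replicate 3 of that dose, at 6.327, exceeded 5 mg/kg replicates 2 (6.145) and 4 (6.276). The average over 6 probe sets was formed with the values in view, and neither average carries a test.

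**Figure D2:**
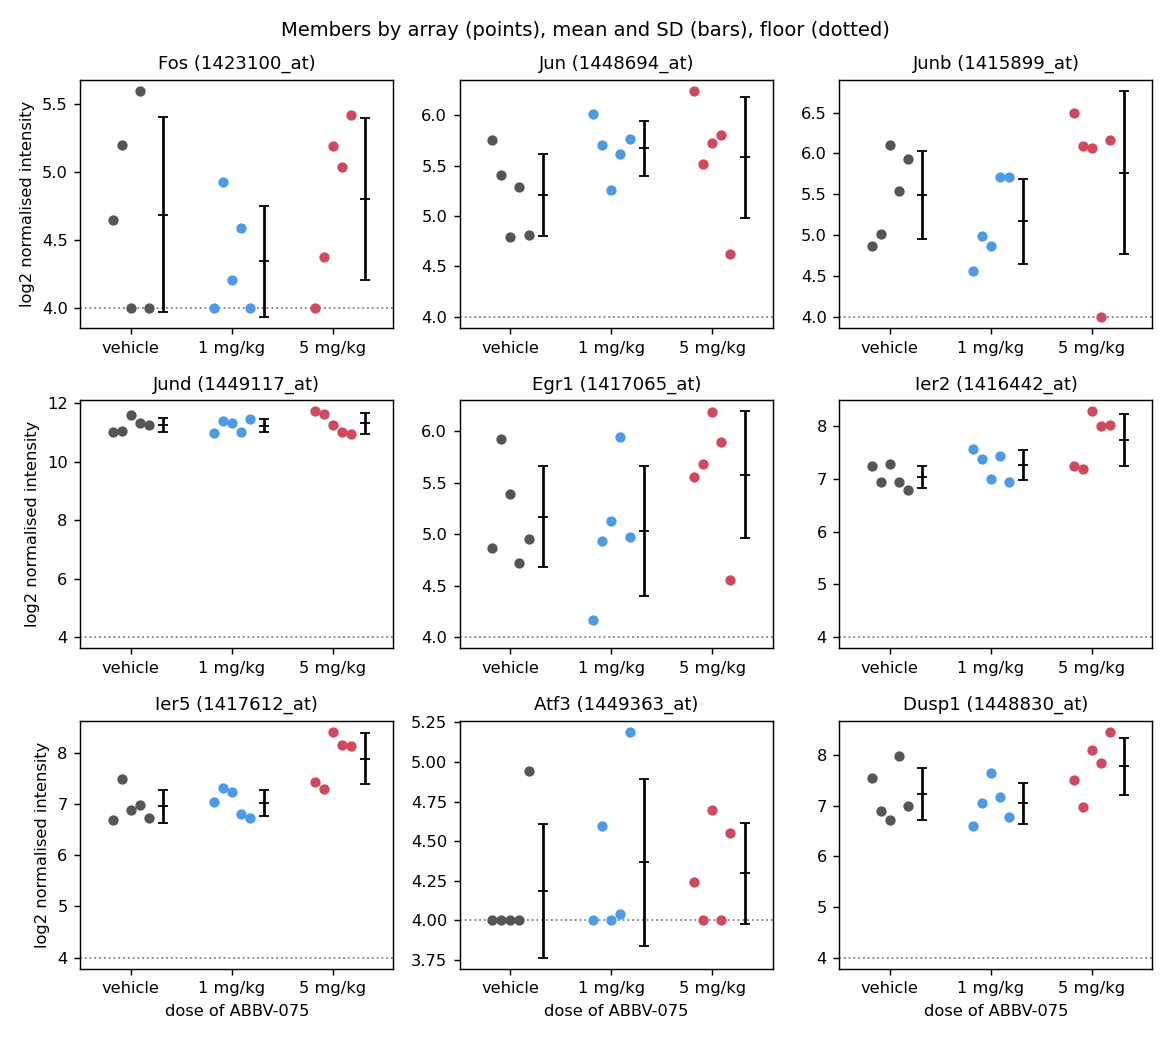
Log2 normalised intensity (y axis, a separate scale in each panel) by dose (x axis) for the brightest tested probe set of 9 members, with 5 arrays per group as points in order of replicate number, the mean ± SD beside them and the floor of 16 (log2 of 4) dotted. At 5 mg/kg Ier2 and Ier5 have 3 arrays above every vehicle array, while Fos and Atf3 lie near the floor in all groups.

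Among the Fos proteins, which cannot pair with each other and need a Jun partner, Fos itself was close to the floor. Its normalised intensities were 25.1, 36.8, 16, 48.4 and 16 with vehicle, 16, 30.5, 18.5, 24.1 and 16 at 1 mg/kg, and 16, 20.8, 36.6, 32.9 and 42.9 at 5 mg/kg. It was above the floor on 10 of 15 arrays and the groups overlapped fully. The log2 difference at 5 mg/kg was 0.12 (SE 0.35; limma adjusted p = 0.973) and at 1 mg/kg -0.34 (SE 0.35; adjusted p = 0.924), each with n = 5 per group and with a 95% interval at 5 mg/kg of -0.62 to 0.85. The sign at 5 mg/kg turned to -0.03 with a floor of 32, and the difference ran from -0.055 to 0.35 leaving out 1 array.

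The Jun proteins pair with Fos proteins or with each other. Jun gave 53.9, 42.3, 27.8, 39.1 and 28.1 with vehicle, 64.6, 52.2, 38.3, 49.2 and 54.5 at 1 mg/kg, and 75.7, 45.9, 53.1, 55.8 and 24.6 at 5 mg/kg. Most treated arrays lay in the upper part of the vehicle range or above it, and the lowest array of all was at 5 mg/kg. The log2 difference was 0.46 ± 0.28 (SE; limma adjusted p = 0.871) at 1 mg/kg and 0.37 ± 0.28 (adjusted p = 0.804) at 5 mg/kg. A further Jun probe set, 1417409_at, was not above the floor on any array.

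Junb, which often restrains Jun, gave 29.2, 32.3, 68.5, 46.6 and 60.9 with vehicle, 23.7, 31.7, 29.1, 52.3 and 52.4 at 1 mg/kg, and 90.5, 68.1, 66.9, 16 and 71.7 at 5 mg/kg. At the higher dose 4 arrays sat near or above the top of the vehicle range and the other was at the floor. The log2 difference of 0.27 ± 0.42 (SE; limma adjusted p = 0.93) became 0.71 (adjusted p = 0.702) without that array, 5 mg/kg replicate 4, and the adjusted p over all alternatives ran from 0.702 to 1.

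Jund was read by a bright and a dim probe set that gave different pictures. The bright one, 1449117_at, gave 2068, 2138, 3069, 2547 and 2465 with vehicle, 2036, 2706, 2569, 2057 and 2801 at 1 mg/kg, and 3367, 3151, 2415, 2082 and 1961 at 5 mg/kg. Its log2 difference was 0.06 ± 0.20 (SE; limma adjusted p = 0.974) at 5 mg/kg, with a 95% interval of -0.36 to 0.48, and -0.01 ± 0.20 (adjusted p = 0.996) at 1 mg/kg. That interval leaves out a change of 1.5 times in either direction. The dim one, 1440265_at, gave 16, 16, 29.6, 22.1 and 16 with vehicle, 16, 17.2, 314, 49.8 and 21.7 at 1 mg/kg, and 45.1, 30.5, 18, 81.9 and 258 at 5 mg/kg. Single arrays at each dose stood far above the rest, and its log2 difference was 1.52 ± 0.76 (adjusted p = 0.649) at 5 mg/kg, 0.97 without replicate 5 of that dose. At 1 mg/kg it was 1.03 ± 0.76 (adjusted p = 0.899), and 0.28 without replicate 3.

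Atf3, a stress-induced bZIP protein that can pair with Jun, exceeded the floor on 7 of 15 arrays (1 vehicle array and 3 at each dose). Its highest values were 36.5 at 1 mg/kg, 30.8 with vehicle and 25.9 at 5 mg/kg, so no group stood out. The log2 difference at 5 mg/kg was 0.11 ± 0.27 (SE; limma adjusted p = 0.967), and -0.26 with the 18S signal as a covariate.

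Egr1, a zinc finger factor induced through the serum response factor, gave 29.2, 60.8, 42, 26.3 and 30.9 with vehicle, 18, 30.5, 34.9, 61.7 and 31.5 at 1 mg/kg, and 46.9, 51.4, 72.7, 59.4 and 23.5 at 5 mg/kg. At the higher dose 4 of 5 arrays lay above 4 of the 5 vehicle arrays and the other was below them all. The log2 difference was 0.40 ± 0.35 (SE; limma adjusted p = 0.837) at 5 mg/kg and -0.14 ± 0.35 (adjusted p = 0.97) at 1 mg/kg.

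Ier2 gave 152, 123, 154, 122 and 111 with vehicle, 189, 167, 128, 172 and 123 at 1 mg/kg, and 152, 145, 310, 255 and 258 at 5 mg/kg. At the higher dose 3 arrays stood above every other array of the study after normalisation, and the other 2 lay within the vehicle range. In deposited intensities those 3 arrays, replicates 3, 4 and 5, were at 161.5, 349.8 and 227.7. On that scale vehicle replicate 1 was at 158.7 and 1 mg/kg replicate 4 at 333.6, so this order rests on the scaling of arrays. The log2 difference at 5 mg/kg was 0.70 ± 0.23 (SE, 5 arrays a group; unadjusted p = 0.00828; limma adjusted p = 0.348), with a 95% interval of 0.21 to 1.20, and its unadjusted p ranked 469 among the 19736. At 1 mg/kg the difference was 0.22 ± 0.23 (adjusted p = 0.926), and between the doses 0.48 ± 0.23 (adjusted p = 0.598).

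Ier5 showed the same split at 5 mg/kg in its brightest probe set, 1417612_at. It gave 103, 181, 119, 126 and 107 with vehicle, 132, 159, 151, 113 and 107 at 1 mg/kg, and 174, 157, 342, 288 and 283 at 5 mg/kg. All but 1 vehicle array lay below the whole 5 mg/kg group. The log2 difference at 5 mg/kg was 0.93 ± 0.24 (SE, 5 arrays a group; unadjusted p = 0.00144; limma adjusted p = 0.184), with a 95% interval of 0.42 to 1.45 and rank 154. Over the alternatives it ran from 0.80 to 1.09 and its adjusted p from 0.0949 to 1. At 1 mg/kg it was 0.07 ± 0.24 (adjusted p = 0.977), so the difference between the doses was nearly as large, 0.86 ± 0.24 (adjusted p = 0.405).

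The other Ier5 probe sets were dim and pulled apart. At 5 mg/kg 1460009_at gave 29.6, 26, 36.2, 31.8 and 21.9 against 17.8, 24.7, 16, 16 and 19.7 with vehicle, a log2 difference of 0.62 ± 0.26 (SE; limma adjusted p = 0.527) in the direction of the bright probe set. By contrast 1417613_at gave 37, 41.4, 16, 18.3 and 16 against 19.5, 30.3, 28.1, 49.1 and 44.9 with vehicle, a log2 difference of -0.47 ± 0.38 (adjusted p = 0.819). Its lowest 3 arrays at 5 mg/kg were those on which 1417612_at was highest. Within groups it went against Ier2 (Pearson r = -0.91 over 15 arrays, Spearman rho = -0.93) and the bright probe set of its own gene (r = -0.46, rho = -0.41), and with the bright Jund probe set (r = 0.74, rho = 0.76), values given as a description.

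**Figure D3:**
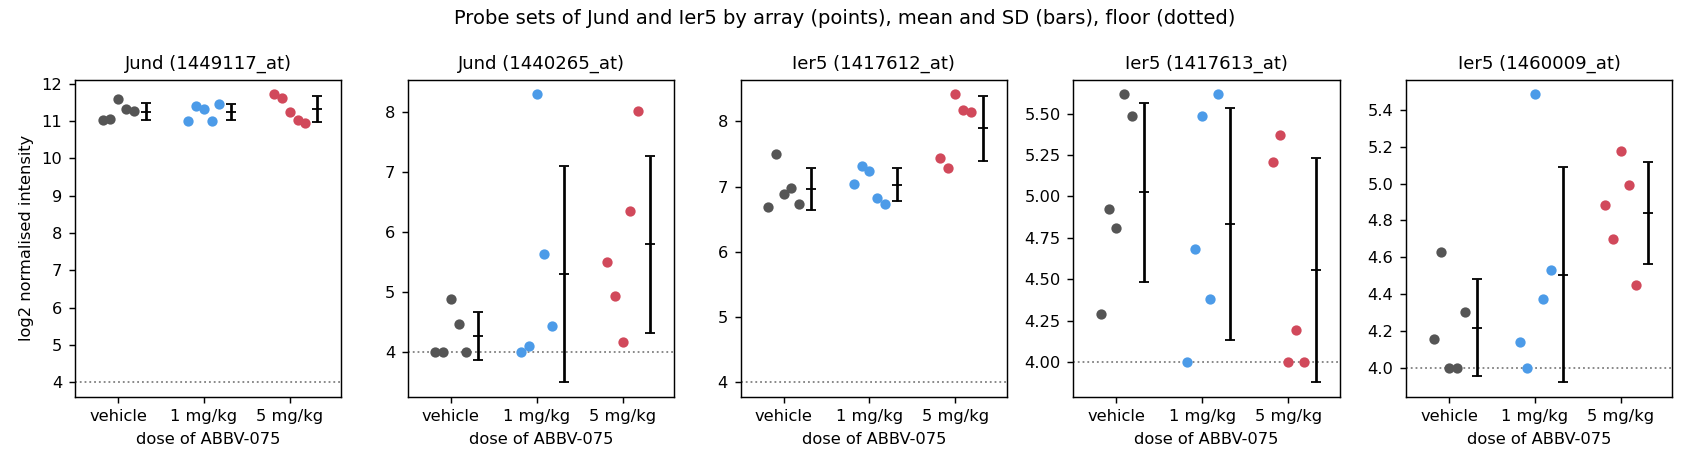
Log2 normalised intensity (y axis, a separate scale in each panel) by dose (x axis) for the Jund and Ier5 probe sets that were tested, with arrays as points in order of replicate number, mean ± SD and the floor dotted. The dim Jund probe set holds single arrays at 314 and 258 in intensity, and the Ier5 probe sets 1417612_at and 1417613_at differ in sign at 5 mg/kg, at 0.93 and -0.47.

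Dusp1, the phosphatase that switches off the p38 and JNK MAP kinases and is itself induced by them and by glucocorticoids, gave 186, 119, 105, 251 and 128 with vehicle, 96.7, 133, 200.0, 143 and 109 at 1 mg/kg, and 181, 126, 273, 230 and 351 at 5 mg/kg. The 2 highest arrays were both at 5 mg/kg. The log2 difference was 0.55 ± 0.31 (SE; limma adjusted p = 0.707) against vehicle and 0.73 ± 0.31 (unadjusted p = 0.0292; adjusted p = 0.521) against 1 mg/kg, and -0.18 ± 0.31 (adjusted p = 0.957) at 1 mg/kg against vehicle.

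On the 3 arrays at 5 mg/kg where Ier2 and Ier5 were highest, replicates 3, 4 and 5, Fos and Dusp1 were also higher than on replicates 1 and 2, while the bright Jund probe set was lower. Some marker lists were higher on the same arrays and others were not. The mean log2 level of the leukocyte markers was 9.40, 9.47, 9.93, 10.19 and 9.85 over replicates 1 to 5 at 5 mg/kg, that of the T cell markers 6.71, 6.81, 7.68, 7.39 and 7.85, and that of the neutrophil markers 5.99, 5.43, 6.74, 6.64 and 6.61. The monocyte markers were nearly level, at 6.79, 6.57, 6.69, 6.62 and 6.54, and the erythroid markers were lower on replicates 3 to 5, at 9.09, 8.86, 8.62, 7.71 and 8.50. The B cell markers (7.03, 6.86, 7.31, 7.87 and 6.95) and platelet markers (8.60, 8.45, 9.10, 8.79 and 8.40) were higher on replicates 3 and 4 but not on replicate 5. The NK cell markers were higher on replicates 3 to 5, at 6.11, 5.63, 6.20, 6.17 and 7.14. The tested eosinophil and basophil markers were lower there, at 6.41, 5.59, 5.53, 5.12 and 5.45. Whether cell content had a part in the Ier2 and Ier5 values was not tested.

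How the members varied within groups was described by correlating their deviations from the group mean over all 15 arrays. The 9 genes did not vary as a unit: of 36 pairs 16 had a Pearson r above 0, with a median of -0.04 and a range of -0.64 to 0.66. Fos went with Ier5 (r = 0.66, Spearman rho = 0.71, and r = 0.69 without the 2 arrays where Fos was farthest from its median) and with Dusp1 (r = 0.66, rho = 0.65, and r = 0.57), and Ier2 went with Ier5 (r = 0.61, rho = 0.58, and r = 0.34). Jund went against Ier2 (r = -0.64, rho = -0.69, and r = -0.53) and Fos (r = -0.53, rho = -0.52, and r = -0.55). These correlations rest on the same arrays and their shared normalisation, and are given without a test.

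**Figure D4:**
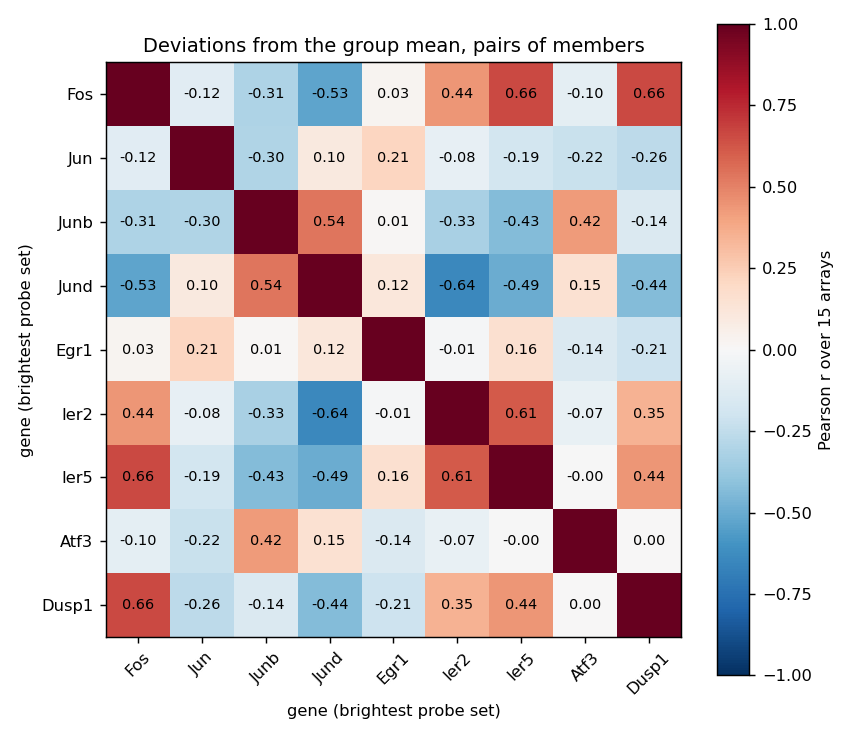
Pearson r between pairs of members (both axes, the brightest tested probe set of each gene) over 15 arrays, computed on deviations from the group mean of log2 intensity, red above 0 and blue below. Fos, Ier2, Ier5 and Dusp1 are positive with each other, from 0.35 to 0.66, and Jund is negative with each of them, from -0.64 to -0.44.

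The promoters of Fos, Ier5 and Dusp1 are shown because these genes varied together within groups, a choice made with the values in view. They come from a set of RefSeq promoters on build GRCm38.p6. The set used here held 8 of the 10 members (all but Egr1 and Ier2). The promoters run from 250 bases before the start site to 50 bases from it: chr12:85473640-85473939, plus strand for Fos, chr1:155099587-155099886, minus strand for Ier5, and chr17:26508423-26508722, minus strand for Dusp1. Capitals mark matches, on either strand, to TGACG, the core of cAMP response elements, to TGACGTCA, the full element, to TATAAA and to GGGCGG, the GC box.
Fos: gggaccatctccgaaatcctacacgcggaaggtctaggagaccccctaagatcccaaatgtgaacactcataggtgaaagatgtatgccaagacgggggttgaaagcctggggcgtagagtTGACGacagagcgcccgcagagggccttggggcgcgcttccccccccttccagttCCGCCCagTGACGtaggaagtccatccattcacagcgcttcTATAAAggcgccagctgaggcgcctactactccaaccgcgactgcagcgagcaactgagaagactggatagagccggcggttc
Ier5: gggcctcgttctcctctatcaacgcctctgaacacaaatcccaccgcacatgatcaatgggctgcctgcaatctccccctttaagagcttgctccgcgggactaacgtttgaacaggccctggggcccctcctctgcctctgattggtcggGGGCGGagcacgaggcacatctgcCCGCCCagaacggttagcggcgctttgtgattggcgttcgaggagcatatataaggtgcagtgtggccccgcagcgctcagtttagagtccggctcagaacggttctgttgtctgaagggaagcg
Dusp1: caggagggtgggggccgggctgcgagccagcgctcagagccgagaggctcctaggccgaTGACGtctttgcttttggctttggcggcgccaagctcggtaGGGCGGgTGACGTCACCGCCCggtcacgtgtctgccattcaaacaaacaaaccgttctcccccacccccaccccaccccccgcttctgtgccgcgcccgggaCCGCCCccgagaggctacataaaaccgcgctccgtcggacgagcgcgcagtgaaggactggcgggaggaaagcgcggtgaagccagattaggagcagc
Fos held TGACG at positions -129 and -66 from the start site and TATAAA at -33, while Dusp1 held TGACG at -191 and the full TGACGTCA at -143, which contains TGACG on both strands. Ier5 held none of these motifs, and had GC boxes at -99 and -75. GC boxes were also present in Fos, at -74, and in Dusp1, at -150, -135 and -48. Of all 32851 promoters of this length 20.8% held TGACG, 1.79% TGACGTCA, 13.6% TATAAA and 35.7% GGGCGG. Among the 8 members 5 held TGACG (Fos, Fosb, Junb, Atf3 and Dusp1), 1 TGACGTCA, 2 TATAAA and 6 GGGCGG. The AP-1 element TGANTCA and the CArG box of the serum response factor were in 7.81% and 1.63% of all promoters and in 0 of the 8 windows. Bases farther than 250 before the start site were not searched, nor were Egr1 and Ier2. The count of 0 thus cannot show that these genes lack such sites.

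Of the other genes of the pathway, 1 passed the threshold. Elk3, an ETS factor that partners the serum response factor at immediate-early promoters, gave 53, 135, 66.8, 51.9 and 46.7 with vehicle, 32.6, 31.6, 38.3, 31.8 and 16 at 1 mg/kg, and 19.9, 17.1, 23.9, 30.7 and 17.9 at 5 mg/kg. All arrays at each dose lay below all vehicle arrays. Elk3 fell 3.04-fold at 5 mg/kg (log2 -1.60, SE 0.30; adjusted p = 0.049 by limma), and at 1 mg/kg its log2 difference was -1.17 ± 0.30 (adjusted p = 0.472). The call stood at the edge of the threshold: 24 of 28 alternatives lost it, leaving out any of the 5 vehicle arrays among them, with log2 values from -1.74 to -1.02 and adjusted p from 0.0211 to 1. Its levels at 5 mg/kg were close to the floor, and its 3 other probe sets were too dim to test. The monocyte markers were lower on the same arrays, 14 of 14 having a log2 difference below 0 with a median of -0.90. Also below 0 were 9 of 9 neutrophil (median -0.35), 8 of 8 platelet (median -0.23), 6 of 7 erythroid and 6 of 7 NK cell markers. By contrast 7 of 8 B cell and 5 of 7 T cell markers were above 0. The part of cell content was not tested.

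The rest of the serum response factor list held 8 further tested genes with none past the threshold (9 tested in all, 3 above and 6 below 0, median -0.08). Creb1, the factor that binds cAMP response elements, gave 119, 154, 144, 119 and 130 with vehicle and 160, 199, 180, 252 and 154 at 5 mg/kg, a log2 difference of 0.49 ± 0.19 (SE; limma adjusted p = 0.476) with groups that just missed overlapping; its other tested probe sets were at 0.09 and 0.44. Elk4, a relative of Elk3, was at -0.33 ± 0.18 (adjusted p = 0.708), and at 0.45 and 0.39 in its other tested probe sets.

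Other AP-1 partners gave 8 tested genes of 14 on the array, 4 above and 4 below 0 at 5 mg/kg with a median of 0.01, and 0 past the threshold (before adjustment 1 higher and 1 lower with a p under 0.05). Atf4, the effector of the integrated stress response, gave 36.5, 116, 82.5, 136 and 93.5 with vehicle and 132, 83.1, 280, 307 and 299 at 5 mg/kg (log2 1.20 ± 0.41, SE; limma adjusted p = 0.364), with 0.50 in another probe set. Fosl2, a Fos relative, had a difference of the other sign, at 52.5, 47.9, 43.5, 38.3 and 61.4 with vehicle and 61.2, 43.6, 22, 18 and 16 at 5 mg/kg (-0.79 ± 0.32; adjusted p = 0.524), with -0.12 in another probe set. Both parted from vehicle on replicates 3, 4 and 5, the arrays where Ier2 and Ier5 were highest. Maf was at -0.65 ± 0.40 (adjusted p = 0.737), and at 0.03, -0.70 and -0.075 in its other tested probe sets. Fosl1, Batf, Batf2, Batf3, Maff and Mafg were too dim to test.

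Other immediate-early genes gave 22 tested of 30 on the array, 15 above and 7 below 0 at 5 mg/kg with a median of 0.22, and 0 past the threshold (before adjustment 1 higher and 2 lower with a p under 0.05). Klf4, a factor of monocyte differentiation, gave 57.8, 76.7, 73.5, 63.7 and 67.2 with vehicle, 36.2, 39.1, 59.3, 34.3 and 39.4 at 1 mg/kg, and 44.1, 46.4, 41.4, 45.4 and 27.3 at 5 mg/kg. All arrays at 5 mg/kg lay below vehicle (log2 -0.75 ± 0.20, SE, with a limma adjusted p of 0.218). The monocyte markers, and those of other cell types, were lower on the same arrays, as given above. Another Klf4 probe set, above the floor on 6 of 15 arrays, was at -0.38 ± 0.30 (limma adjusted p = 0.816) at 5 mg/kg. Btg2, an antiproliferative gene, was at 1.36 ± 0.56 (adjusted p = 0.53), and 0.48 in another probe set, and Myc was at -0.94 ± 0.36 (adjusted p = 0.451), above the floor on 2 of 5 arrays at 5 mg/kg.

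Between the doses the same list had 4 of 22 genes higher at 5 mg/kg before adjustment and 0 past the threshold, where 6.17% of all probe sets were higher and 2.41% lower before adjustment. The 4 are named here after their values were seen. Klf2, a factor of lymphocyte quiescence and trafficking, differed by a log2 of 0.71 ± 0.25 (SE; limma adjusted p = 0.461), Klf6 by 0.67 ± 0.25 (adjusted p = 0.475), Btg1, a brake on proliferation, by 0.62 ± 0.25 (adjusted p = 0.501), and Mcl1, a short-lived survival protein, by 0.54 ± 0.18 (adjusted p = 0.451). Each was below vehicle at 1 mg/kg and above it at 5 mg/kg, the pattern of Egr1, Junb, Fos and Dusp1, with differences from vehicle of -0.33 to -0.19 and 0.21 to 0.52. Among the 4 leukocyte markers Ptprc had the same order, at -0.56 and 0.16, and so did Coro1a, at -0.32 and 0.31. Cd52 (-0.614 and -0.053) and Laptm5 (-0.495 and -0.465) were below vehicle at both doses. Between the doses 4 of 4 leukocyte markers (median 0.60), 8 of 8 B cell markers (median 0.95) and 7 of 7 T cell markers (median 0.60) had a log2 difference above 0, and their part in these values was not tested.

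Upstream and downstream of AP-1 no gene passed. MAP kinases gave 13 tested genes, 5 above and 8 below 0 with a median of -0.07. Mapk14, which encodes p38 alpha, was at -0.74 ± 0.40 (SE, with a limma adjusted p of 0.699) in its brightest probe set. Its other tested probe sets were at 0.24, 0.19, 0.13 and -0.60. Map2k1 was at 0.42 ± 0.23 (adjusted p = 0.7) and Map3k1 at 0.35 ± 0.22 (limma adjusted p = 0.752). The MAP kinase phosphatases, listed with the Sprouty and Spred inhibitors, gave 11 tested genes, 7 above and 4 below 0 with a median of 0.04. Dusp6, which switches off ERK and is used as a readout of its activity, gave 115, 108, 113, 121 and 67.1 with vehicle, 34.7, 60.4, 88, 65.8 and 18.7 at 1 mg/kg, and 43.1, 32.3, 37.3, 70.0 and 37.4 at 5 mg/kg. On 4 of 5 arrays at each dose it lay below every vehicle array. The log2 differences were -1.13 ± 0.36 (SE; limma adjusted p = 0.709) and -1.28 ± 0.36 (adjusted p = 0.24), opposite in sign to that of its relative Dusp1 at 5 mg/kg. At that dose Dusp2 was at -0.35 ± 0.23 (limma adjusted p = 0.757). Dusp10 was at -0.39 ± 0.30 (limma adjusted p = 0.809), and at 0.09 in another probe set. Reported AP-1 targets gave 12 tested genes, 5 above and 7 below 0 with a median of -0.20. Il1b, the inflammatory cytokine, was at -0.45 ± 0.22 (limma adjusted p = 0.637) and Ccl2 at -0.49 ± 0.28 (adjusted p = 0.716). Ccnd1 had the other sign, at 0.46 ± 0.27 (limma adjusted p = 0.721), and was at 0.015 and 0.51 in its other tested probe sets.

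**Figure D5:**
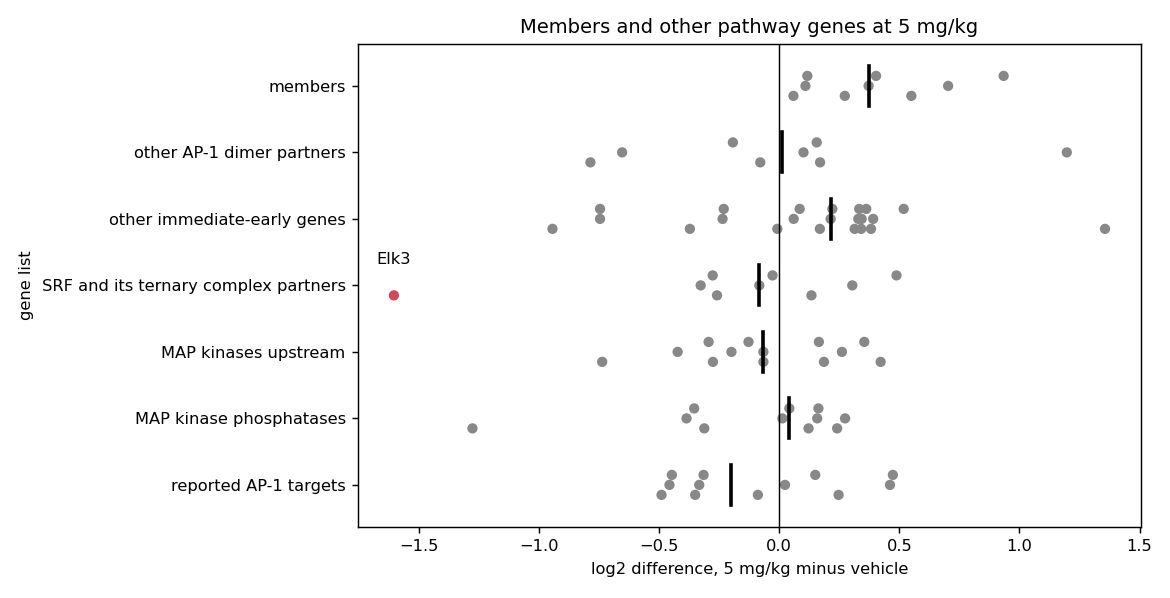
Log2 difference at 5 mg/kg minus vehicle (x axis) of each tested gene, at its brightest probe set, in the member list and 6 other pathway lists (y axis), with the list's median as a black bar; red marks an adjusted p under 0.05. All 9 members lie above 0 at the settings used here, with a median of 0.37, and Elk3 at -1.60 is the only red point. Fos was below 0 in 4 of 28 alternatives, Jund in 3 of 28 and Atf3 in 1 of 27.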

How the data were processed

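Total RNA from whole blood was extracted with Qiazol and RNeasy columns and biotin-labelled from 200 ng, per the labels' protocols. The authors deposited one intensity per probe set and array, on a linear scale with negative values; its software and any normalisation is not given in the sources used here. Control probe sets (64) were left out, the arrays were quantile-normalised, values under 16 were set to 16, and log2 was taken. Probe sets annotated with 1 gene (34945; 932 had several and 9160 none listed) and above the floor on at least 5 arrays were tested. The annotation can be old; 0 symbols changed through Entrez identifiers. One model of 3 group means was fitted to all 15 arrays with lmFit and eBayes (limma 3.58.1, R 4.3.3; 12 residual degrees of freedom and 3.985 from the prior). Its two-sided p-values were adjusted by Benjamini-Hochberg over 19736 probe sets, with 0.05 as the threshold. The script was tested on simulated data. A gene with several probe sets was taken at its brightest in lists, and all probe sets of a member are given; probe sets read mainly the 3' end. Of other pathway lists up to 3 genes with the smallest p at 5 mg/kg were named, and 4 more after their values were seen. The number of arrays limits precision. Members, lists and the floor were chosen with earlier results of these data known. Alternatives were 13 other settings and leaving out each of 15 arrays. Sequences and motif counts used Python 3.11.15 and pandas 2.3.3.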

Additional observations from a re-analysis of the deposited data

Results flagged for a closer look

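Junb on 5 mg/kg replicate 4 lay far below the rest of its group: it was at the floor, and the gap to the next lowest array took up 0.826 of the group's whole range. Atf3 on vehicle replicate 5, at an intensity of 30.8, was the single array of its group above the floor, so that the gap was the whole range (1.00). Both exceed the limit of 0.71 for 5 samples. On normalised intensities before the floor and log2 the ratios were 0.74 for Junb and 0.505 for Atf3, so the mark on Atf3 comes from the floor. The dim Jund probe set, 1440265_at, exceeded the limit on that scale only, at 0.880 (1 mg/kg replicate 3) and 0.734 (5 mg/kg replicate 5). Of 36 groups of member values 2 were marked on log2 values with the floor, and chance marks about 5%.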

How the results depend on the processing

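Under every alternative run 0 member probe sets passed in any comparison. Over all probe sets, 32 passed at 5 mg/kg (10 higher, 22 lower), against 2 (0 and 2) without scaling between arrays, where the median of all differences moved from -0.01 to 0.12; the split was also 24 and 23 with probe sets above the floor on at least 1 array. The count was 19 with a floor of 8, 69 (32 and 37) with a floor of 32, 11 with 1 probe set per gene, 93 (44 and 49) with array weights, 50 with the compared groups alone, 0 with the 18S covariate (limma, 1682 at an unadjusted p under 0.05), and 12 to 37 leaving out 1 array (12 without 5 mg/kg replicate 5, and 15 to 21 without vehicle replicate 1, 3, 4 or 5, 1 mg/kg replicate 2 or 5 mg/kg replicate 3). At 1 mg/kg 1 passed, against 4 with a floor of 32, 0 without scaling, with probe sets above the floor on at least 1 array, without a filter, with array weights, with the compared groups alone, with the 18S covariate and with the replicate block, and 0 to 2 leaving out 1 array. Between the doses 0 passed, against 1 with a floor of 8, 1 with the pseudocount of 16 and 0 to 1 leaving out 1 array. The cause of these changes was not tested.

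Some member differences changed sign, each with its adjusted p above the threshold. Without scaling, Egr1 was at 0.14 and Ier5 1417613_at at 0.12 for 1 mg/kg, and Jun at 0.10 between the doses. With the 18S covariate, Atf3 was at -0.048 (1 mg/kg) and -0.26 (5 mg/kg), Jund 1449117_at at -0.083 (5 mg/kg) and Jun at 0.068 between the doses. With array weights Jund 1449117_at was at 0.03 (1 mg/kg). With a floor of 32 Fos was at -0.029 (5 mg/kg), and between the doses Atf3 was at 0.13 with a floor of 8 and 0.13 with the pseudocount. Leaving out 1 array gave, at 1 mg/kg, -0.072 to 0.071 for Jund 1449117_at, -0.37 to 0.073 for Egr1, -0.39 to 0.017 for Ier5 1417613_at, -0.028 to 0.37 for Atf3 and -0.33 to 0.006 for Dusp1; at 5 mg/kg, -0.055 to 0.35 for Fos and -0.042 to 0.15 for Jund 1449117_at; and between the doses, -0.26 to 0.15 for Jun, -0.056 to 1.25 for Jund 1440265_at, -0.031 to 0.16 for Jund 1449117_at and -0.17 to 0.14 for Atf3.

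Same-numbered arrays of different groups deviated together at r of -0.28 to 0.32. Differently numbered arrays were not set beside them, so this cannot settle whether equal replicate numbers in the titles pair the mice. With the replicate number as a block 23 probe sets passed at 5 mg/kg (8 higher, 15 lower), 0 at 1 mg/kg and 0 between the doses, and 0 members in each; Elk3 was at -1.60 (adjusted p = 0.0817). Values near the floor have no order, and some alternatives left dim member probe sets untested, which limits Fos, Atf3 and the dim probe sets of Jund and Ier5.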
